A study of Mus musculus with 8 samples.

Results

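The 34 genes described here encode 19 enzymes that build cholesterol from acetyl-CoA, the enzymes that esterify it, the sterol-sensing SREBP machinery, lipoprotein receptors, sterol exporters with their LXR regulators, and proteins of mitochondrial sterol use. They were chosen by name and found by matching Ensembl gene IDs to mouse symbols. All 34 were among the 55471 genes of the count tables and all 34 were among the 15084 genes with enough reads to be tested. RNA was sequenced from pieces of heart of 4 wild-type (WT) mice and 4 TAZG197V mice at 14 weeks of age. TAZG197V mice carry the G197V change (glycine to valine) in Tafazzin, the mitochondrial acyltransferase that remodels cardiolipin, as found in a patient with Barth syndrome. The allele was made by CRISPR/Cas9 editing of C57BL/6N zygotes, and founders were bred to C57BL6/J mice for 2 generations. The gene is X-linked and, as the study states, mutant animals were hemizygous males. The labels give no other allele or treatment for either group. The mutation is constitutive, so the cells in which a change arose are not given by the model, and a whole piece of heart holds myocytes, fibroblasts, endothelium and other cells.

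Cells make cholesterol through the mevalonate pathway, whose early steps also supply isoprenoids for protein prenylation, dolichol and ubiquinone. When sterols are scarce, SCAP escorts SREBP transcription factors from the endoplasmic reticulum for activation by cleavage, and INSIG proteins hold SCAP back when sterols are plentiful. Excess sterol is esterified by SOAT enzymes, exported by ABC transporters under control of the oxysterol receptors LXR, or oxidised. The heart is known more for taking up and burning lipid than for making sterols, and VLDL receptor is abundant in it.

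Total counts ranged from 23055689 to 36301031 per library. Taz, the edited gene, had 58.7 to 63.8 CPM (counts scaled to library size by TMM) in WT and 44.3 to 50.4 in TAZG197V, with an edgeR log2 fold change of -0.37 ± 0.055 (SE) and an adjusted p of 0.00124. Counts per gene cannot tell the edited transcript from the WT one. Ventricular markers were abundant in all 8 libraries, with a summed level over 6 genes of 55230 to 63730 CPM in WT and 48190 to 51570 CPM in TAZG197V, every mutant library below every WT library, and 2 of the 6 were called lower. The part of this difference in the genes reported as lower was not tested. Both libraries numbered 4 stood apart from the other 6 and held brain transcripts, with 6 brain markers summing to 91.9 CPM in WT 4 and 190.2 CPM in TAZG197V 4 against 10.04 to 19.3 CPM elsewhere. WT 4 also held red cell transcripts at a summed level of 44080 CPM over 4 genes against 181.5 to 854.3 CPM in the other 7 libraries. Results that rest on the number 4 libraries are therefore given with and without them. WT 2 held atrial and adipocyte transcripts (936.6 CPM over 5 genes and 40.4 CPM over 6), and WT 1 held 82.2 CPM of the atrial markers. The atrial sums were 10.2 to 936.6 CPM in WT and 3.94 to 5.98 CPM in TAZG197V, every mutant library below every WT library. All 3 atrial markers tested were called lower, and their part in the genes reported was not tested. Libraries 1 and 2 of each genotype came from sequencing lane 7 and libraries 3 and 4 from lane 8.

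Of the 34 genes, 19 were not called. In TAZG197V 15 were called, 10 higher and 5 lower (edgeR adjusted p under 0.05, a fold change beyond the study's own cut-off and a mean count of at least 50). Of all genes tested 33.5% were called, 18.5% higher and 15.1% lower, so the share of cholesterol genes called, 44.1%, was near that of the whole transcriptome. Among genes that reached the mean count of 50, 41% were called. Idi1 and Fdps, with mean counts of 15.1 and 21.6, could not be called. All 15 called genes had one sign in both sequencing lanes. The lanes hold the same libraries that gave the calls, so this is a description and adds no support. The median log2 fold change was 0.10 over the 34 genes and -0.01 over all genes tested. Values of the 2 genotypes did not overlap for 12 of the 34 genes, 7 higher and 5 lower, and for 33.2% of all genes tested, 19.3% higher and 13.9% lower.

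**Figure D1:**
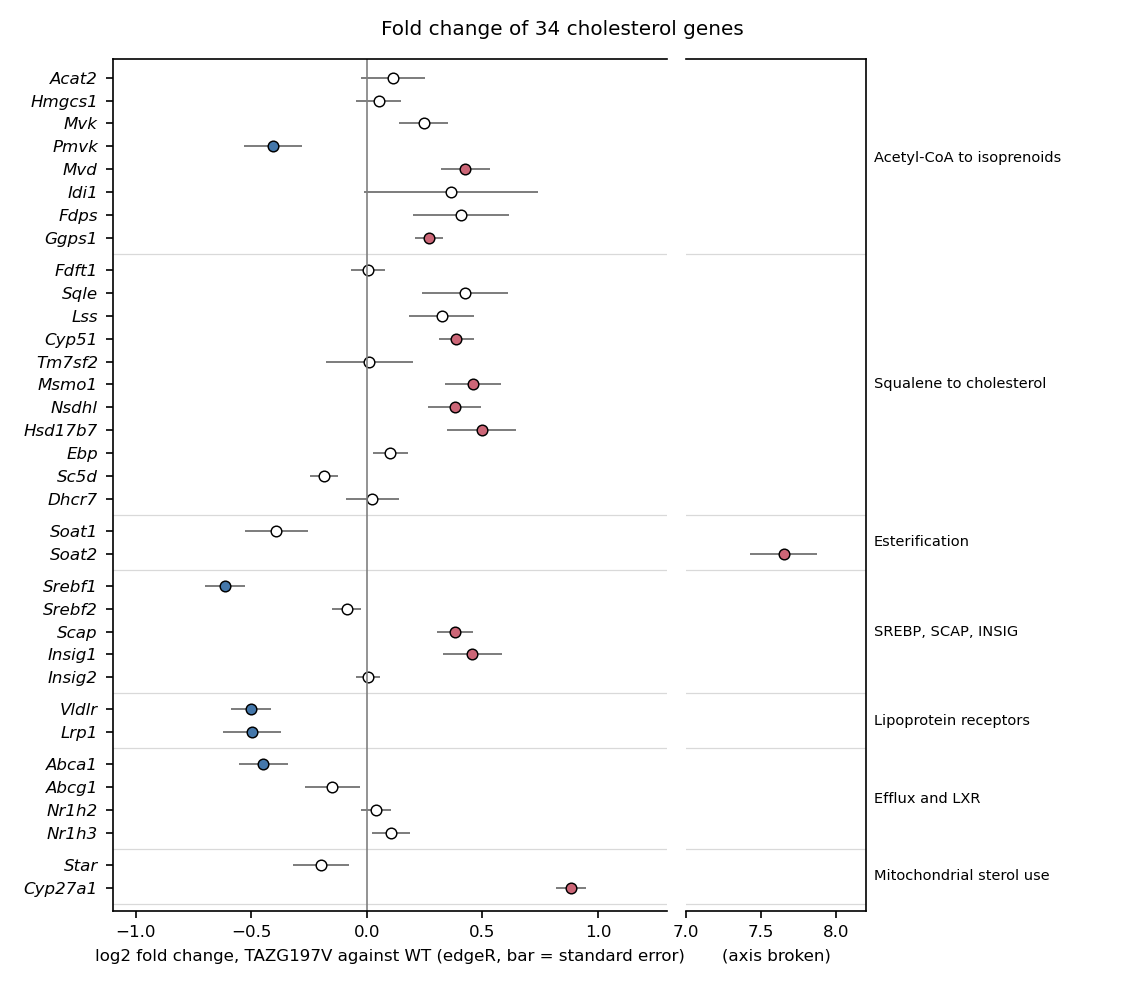
Fitted log2 fold change of TAZG197V against WT (x axis, edgeR, broken between the main range and Soat2) for each of the 34 genes (y axis), grouped by role. Points are estimates, bars are standard errors, red points were called higher (10 genes), blue points called lower (5) and open points not called (19), and Soat2 at 7.65 lies far beyond the rest, which run from -0.61 to 0.88.

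Of the 19 enzymes of cholesterol synthesis 12 were not called (36.8% called, against 33.5% of all genes tested). The calls were small, 6 higher (Mvd, Ggps1, Cyp51, Msmo1, Nsdhl and Hsd17b7) and 1 lower (Pmvk), and the log2 fold changes of the 19 ran from -0.41 to 0.50 with a median of 0.27. Estimates were above 0 for 17 of the 19 (89.5%), against 48.8% of all genes tested. Without both number 4 libraries and without surrogate variables, an alternative chosen after seeing the data, 12 of the 19 were above 0 and the median was 0.20. In that fit 5 were called higher, where 17% of all genes tested were, and the share of all genes above 0 was not counted. With both number 4 libraries left out and surrogate variables kept, 1 of the 19 was called higher, Hsd17b7, against 9.41% of all genes tested.

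The 8 early enzymes carry acetyl-CoA to the isoprenoid diphosphates. Mvd, the decarboxylase that makes isopentenyl diphosphate, stood at 5.21, 4.86, 4.74 and 6.92 CPM in WT 1 to 4 and at 6.50, 7.37, 6.29 and 9.54 CPM in TAZG197V 1 to 4. Only WT 4 reached into the mutant range. Its log2 fold change was 0.43 ± 0.11 (SE, edgeR adjusted p = 0.0144) and the difference of mean log2(CPM + 0.5) was 0.42 within lane 7 and 0.41 within lane 8. The call was lost without surrogate variables (edgeR adjusted p = 0.0842) and with lane in their place (0.0813).

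Ggps1, the synthase of the geranylgeranyl diphosphate used for protein prenylation, was steady within genotypes. It measured 23.3, 24.1, 22.2 and 23.4 CPM in WT and 27.9, 26.8, 29.3 and 27.5 CPM in TAZG197V, so the genotypes did not overlap. Its log2 fold change was 0.27 ± 0.062 (edgeR adjusted p = 0.00993). Of the 50-base windows of its transcripts 9.58% also occur in another gene.

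Pmvk, which phosphorylates mevalonate phosphate, went the other way. WT values were 9.37, 9.48, 9.36 and 9.47 CPM, nearly identical, and TAZG197V values were 5.63, 6.34, 7.65 and 8.88 CPM, all lower but widely spread. Fitted over all libraries, Pmvk gave a log2 fold change of -0.41 ± 0.12 (edgeR adjusted p = 0.0328), with a difference of -0.62 in lane 7 and -0.18 in lane 8. The call was lost when any of WT 1, WT 2, WT 3, TAZG197V 1 or TAZG197V 2 was left out (adjusted p 0.0706 to 0.116), and without surrogate variables (0.0574).

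The other early enzymes were not called. Mvk, the mevalonate kinase, had 5.95 to 7.15 CPM in WT and 7.23 to 9.17 CPM in TAZG197V, without overlap, yet its log2 fold change of 0.25 ± 0.10 missed the threshold (edgeR adjusted p = 0.0972) and passed it only without WT 3 (0.0457). Acat2, the cytosolic acetoacetyl-CoA thiolase, and Hmgcs1, which condenses it to HMG-CoA, gave 0.11 ± 0.14 and 0.05 ± 0.097 (adjusted p 0.55 and 0.706). Idi1, the isopentenyl diphosphate isomerase, and Fdps, the farnesyl diphosphate synthase, gave 0.36 ± 0.37 and 0.41 ± 0.21 on few reads (adjusted p 0.469 and 0.154). Windows shared with other genes made up 39.1% of Acat2, 26.2% of Fdps, 25.3% of Idi1 and 11.6% of Hmgcs1, so their levels are uncertain.

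In the branch from squalene to cholesterol, 4 of 11 enzymes were called higher and none lower (36.4% called, 33.5% over all genes). Cyp51 (ENSMUSG00000001467, chromosome 5, 4081145 to 4104746, minus strand), the lanosterol demethylase, measured 15.1, 14.1, 14.9 and 16.8 CPM in WT and 20.0, 17.2, 17.9 and 25.9 CPM in TAZG197V. The lowest mutant value lay just above the highest WT value. It rose by a log2 fold change of 0.39 ± 0.075 (edgeR adjusted p = 0.00458), with differences of 0.34 in lane 7 and 0.44 in lane 8.

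Msmo1 and Nsdhl act in turn to remove methyl groups from the sterol ring, together with Hsd17b7. Msmo1 measured 6.43, 8.49, 8.66 and 10.2 CPM in WT and 9.96, 10.5, 10.4 and 16.4 CPM in TAZG197V, with WT 4 inside the mutant range. Its log2 fold change was 0.46 ± 0.12 (edgeR adjusted p = 0.0178), and the call was lost without TAZG197V 2 or without TAZG197V 4 (0.0539 and 0.0525), without surrogate variables (0.0916) and with lane in their place (0.0543). The Msmo1 estimate was 0.25 without both number 4 libraries (0.264). Nsdhl measured 5.58, 5.55, 5.17 and 7.59 CPM in WT and 6.58, 7.61, 5.97 and 11.7 CPM in TAZG197V, with WT 4 again inside the mutant range. Its log2 fold change was 0.38 ± 0.11 (adjusted p = 0.0298), and the call was lost without any of WT 1, WT 3, TAZG197V 2 or TAZG197V 4 (0.0548 to 0.121). The Nsdhl call was also lost in DESeq2 (0.073), without surrogate variables (0.193), with lane in their place (0.192) and without the low-count filter (0.0627).

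Hsd17b7, the 3-ketosteroid reductase of this complex, had the largest estimate among the synthesis enzymes and overlapping genotypes. WT values were 21.2, 21.1, 26.02 and 37.6 CPM and TAZG197V values were 44.3, 42.7, 35.4 and 32.4 CPM. WT 4 exceeded TAZG197V 3 and TAZG197V 4. Its fitted log2 fold change was 0.50 ± 0.15 (edgeR adjusted p = 0.0303), with a difference of 1.02 in lane 7 and 0.11 in lane 8, and the call was lost in 6 of the 8 fits that left out 1 library, and without surrogate variables (0.0578), with 1 of them (0.0517) or with lane in their place (0.0653). It was 0.84 without both number 4 libraries and without surrogate variables (adjusted p = 9.06e-04).

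The remaining 7 enzymes of this branch were not called. Sc5d, the lathosterol desaturase, stood at 25.9 ± 1.12 CPM for WT and 22.8 ± 1.55 for TAZG197V hearts (SD, n = 4), short of the required fold, with a log2 fold change of -0.18 ± 0.061 (edgeR adjusted p = 0.0435). Lss, which closes the sterol rings, gave 0.32 ± 0.14 (adjusted p = 0.104) and was called only without WT 4 (0.0354). Fdft1, the squalene synthase, Tm7sf2, a sterol reductase, Ebp, the sterol isomerase, and Dhcr7, the last reductase, lay between 0.00 and 0.10 (adjusted p 0.309 to 0.97). Fdft1 shares 26.5% of its windows with other genes, Tm7sf2 9.87%.

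Sqle (ENSMUSG00000022351, chromosome 15, 59315077 to 59331192, plus strand), the epoxidase that commits squalene to the sterol branch, varied with the libraries fitted. It measured 1.42, 2.50, 1.24 and 7.23 CPM in WT and 1.96, 2.10, 1.94 and 15.2 CPM in TAZG197V. The 6 other libraries overlapped at 1.24 to 2.50 CPM. The log2 fold change was 0.43 ± 0.19 (edgeR adjusted p = 0.106), 0.97 without WT 4 (0.00295), 0.54 without WT 2 (0.0321) and 0.02 without TAZG197V 4 (0.954). It was 0.69 without both number 4 libraries (0.136) and 0.20 without these and surrogate variables (0.602).

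Several sterol genes besides Sqle were highest in the number 4 libraries. Both number 4 libraries exceeded all other 6 libraries for 9 of the 34 genes (26.5%), namely Sqle, Acat2, Hmgcs1, Dhcr7, Fdft1, Fdps, Srebf2, Abcg1 and Star, where 6.79% of all genes tested did so. Hmgcs1 measured 36.4, 33.6, 36.7 and 51.4 CPM in WT and 33.8, 29.98, 35.4 and 78.2 CPM in TAZG197V. Acat2 measured 3.35, 2.80, 2.64 and 4.64 CPM in WT and 2.80, 2.78, 2.97 and 7.15 CPM in TAZG197V. Relative to the mean of the other 3 libraries of its genotype, WT 4 was 4.20 times as high for Sqle, 1.58 times for Acat2 and 1.45 times for Hmgcs1, and TAZG197V 4 was 7.59, 2.51 and 2.36 times as high. The brain markers Slc1a2 (30.8 CPM in WT 4 and 79.0 in TAZG197V 4, at most 2.18 elsewhere) and Nnat (30.7 and 73.2, at most 3.93 elsewhere) moved with these genes, and their part in the result was not tested.

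**Figure D2:**
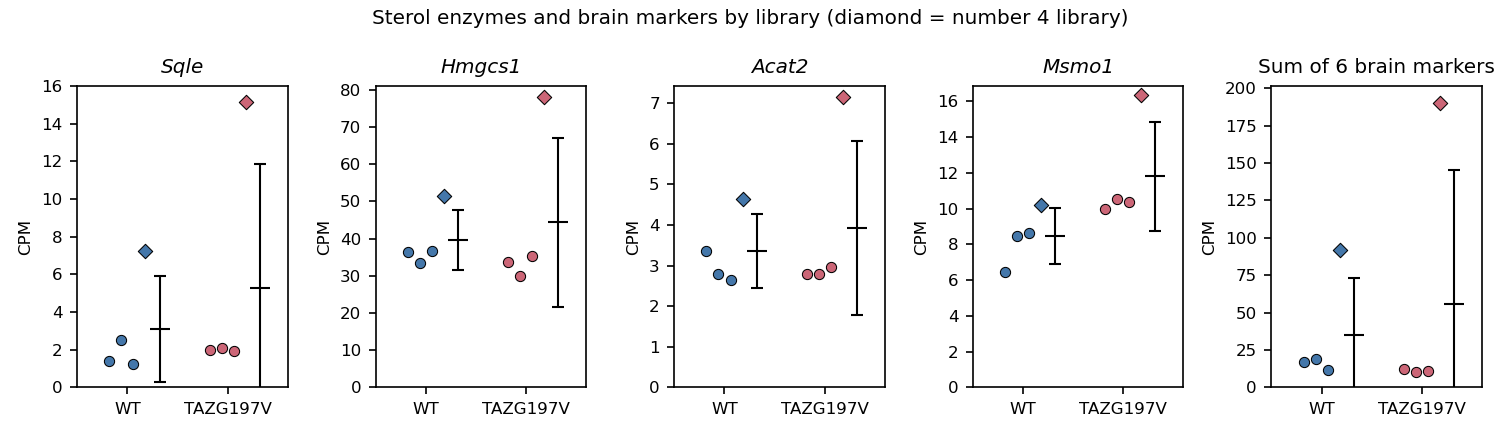
CPM (y axis) of Sqle, Hmgcs1, Acat2 and Msmo1 and the summed CPM of 6 brain markers in each library by genotype (x axis). Points are libraries, diamonds are the number 4 libraries, and crosses with bars are the mean and SD over 4 libraries. In each panel TAZG197V 4 is the highest point, at 15.2 CPM for Sqle and 190.2 CPM for the markers.

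Promoter sequences were searched for 3 motifs. RefSeq promoters of 300 bases (250 before and 50 after a transcription start, build GRCm38.p6) were found for 28 of the 34 genes, 38 promoters in all. No entry was matched for Abcg1, Fdft1, Fdps, Soat2, Sqle and Star. The CCAAT box, searched as CCAAT on both strands, occurred in 15 of the 19 promoters listed for 16 synthesis genes (78.9%) and in 37.4% of all 32851 promoters. The sterol regulatory element core, searched as TCACNCCAC on both strands, occurred in 1.24% of all promoters and, among the 28 genes with a promoter to search, in Hmgcs1 alone. The C/EBP-ATF composite, searched as TGATGNAA on both strands, occurred in 3.97% of all promoters and in those of Idi1, Insig2 and Vldlr. Base composition was not matched in these shares, and they were not tested. The 250 bases before the start are shown for Hmgcs1, which was highest in both number 4 libraries and holds the sterol element, for Msmo1 and Nsdhl, which were called higher, and for Vldlr, which was called lower. Capitals mark the matches on either strand, the 9-base run in Hmgcs1 being the sterol element, the 8-base run in Vldlr the C/EBP-ATF composite and the 5-base runs CCAAT boxes. The Hmgcs1 stretch is chr13:119690101-119690350 on the plus strand, that of Msmo1 chr8:64733579-64733828 on the minus strand, that of Nsdhl chrX:72918271-72918520 on the plus strand and that of Vldlr chr19:27216770-27217019 on the plus strand, 1 of 2 promoters listed for it.
Hmgcs1: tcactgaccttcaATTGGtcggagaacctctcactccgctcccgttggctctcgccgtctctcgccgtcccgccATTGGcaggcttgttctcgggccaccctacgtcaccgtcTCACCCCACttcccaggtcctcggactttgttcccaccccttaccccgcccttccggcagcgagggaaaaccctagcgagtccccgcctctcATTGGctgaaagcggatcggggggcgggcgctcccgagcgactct
Msmo1: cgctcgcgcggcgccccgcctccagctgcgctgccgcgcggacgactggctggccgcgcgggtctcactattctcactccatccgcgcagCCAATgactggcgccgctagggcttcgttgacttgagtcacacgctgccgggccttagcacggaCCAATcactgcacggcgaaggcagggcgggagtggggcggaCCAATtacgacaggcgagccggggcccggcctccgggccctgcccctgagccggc
Nsdhl: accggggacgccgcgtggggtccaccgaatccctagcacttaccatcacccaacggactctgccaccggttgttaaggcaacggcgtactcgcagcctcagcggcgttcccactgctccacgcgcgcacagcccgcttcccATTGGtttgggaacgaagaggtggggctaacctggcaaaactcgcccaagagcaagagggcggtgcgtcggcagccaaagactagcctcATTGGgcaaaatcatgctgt
Vldlr: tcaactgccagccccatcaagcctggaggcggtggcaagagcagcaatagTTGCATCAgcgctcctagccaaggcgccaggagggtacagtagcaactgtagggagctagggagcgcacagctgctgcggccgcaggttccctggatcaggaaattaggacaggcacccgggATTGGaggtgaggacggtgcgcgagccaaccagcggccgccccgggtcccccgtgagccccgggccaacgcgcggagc

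The largest change among the 34 genes was in esterification. Soat2 encodes the sterol O-acyltransferase best known from liver and intestine, and Soat1 the widely expressed one. Soat2 (ENSMUSG00000023045, chromosome 15, 102150526 to 102163469, plus strand, mm10) had 1, 6, 8 and 6 counts in WT and 1226, 1589, 1312 and 919 counts in TAZG197V. Scaled to library size this was 0.034, 0.16, 0.31 and 0.27 CPM in WT and 44.5, 42.9, 42.3 and 33.7 CPM in TAZG197V. The gene was close to silent in every WT heart and well expressed in every mutant heart, with a ratio of mean CPM of 210.3. EdgeR gave a log2 fold change of 7.65 ± 0.22 (adjusted p = 3.74e-07), the gene was called in all 18 alternative fits, and its estimates there ran from 7.10 to 8.01. On the log2(CPM + 0.5) scale, which shrinks a change from so low a level, the difference was 6.21 within lane 7 and 5.60 within lane 8.

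Soat2 is known from liver and intestine, and markers of both were looked up. Of 5 hepatocyte markers, Alb had at most 1 count in a library, Serpina1a none and Tat at most 9, and none of these 3 had enough reads to be tested. Cyp2e1 reached 11.8 CPM in WT 2 and 2.05 CPM in TAZG197V 4, with at most 1.39 CPM elsewhere (log2 fold change -1.20, edgeR adjusted p = 0.203). Ttr stood at 0.137 to 0.447 CPM in WT and 0.378 to 1.69 CPM in TAZG197V, highest in TAZG197V 4, and had a log2 fold change of 1.14 (edgeR adjusted p = 0.0184) below the mean count needed for a call. The 5 summed to 0.505 to 12.2 CPM in WT and 0.567 to 3.96 CPM in TAZG197V. The enterocyte markers Fabp2 and Apoa4 had no count, and Vil1 brought the sum of 3 enterocyte markers to 0.0677 to 0.272 CPM in WT and 0.293 to 0.618 in TAZG197V. The part of these tissues in the Soat2 result was not tested. Of 8 other genes within 100 kb of Soat2, 3 were called higher and 1 lower, and their log2 fold changes ran from -1.30 to 0.52, against 18.5% (higher) and 15.1% (lower) of all genes tested. Only 0.755% of its 50-base windows occur in another gene.

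Soat1 pointed downward and was not called. It measured 5.92, 7.59, 4.78 and 8.39 CPM in WT and 4.47, 4.10, 4.91 and 6.42 CPM in TAZG197V, with overlap. Its log2 fold change was -0.39 ± 0.14 (edgeR adjusted p = 0.0509), and it was called without WT 3 or without TAZG197V 4 (0.0259 and 0.0421), with 1 surrogate variable (0.0434), with DESeq2 size factors (0.0447) and without the low-count filter (0.0451). Its estimate was -0.09 without both number 4 libraries (0.78) and -0.45 without these and surrogate variables (0.0871). Per kilobase of exon, Soat1 stood at 0.68 ± 0.17 CPM and Soat2 at 0.088 ± 0.056 in WT, while in mutant hearts Soat1 stood at 0.51 ± 0.10 and Soat2 at 18.5 ± 2.2 (SD, n = 4). Soat1 thus gave the higher level of the pair in WT and Soat2 in TAZG197V.

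**Figure D3:**
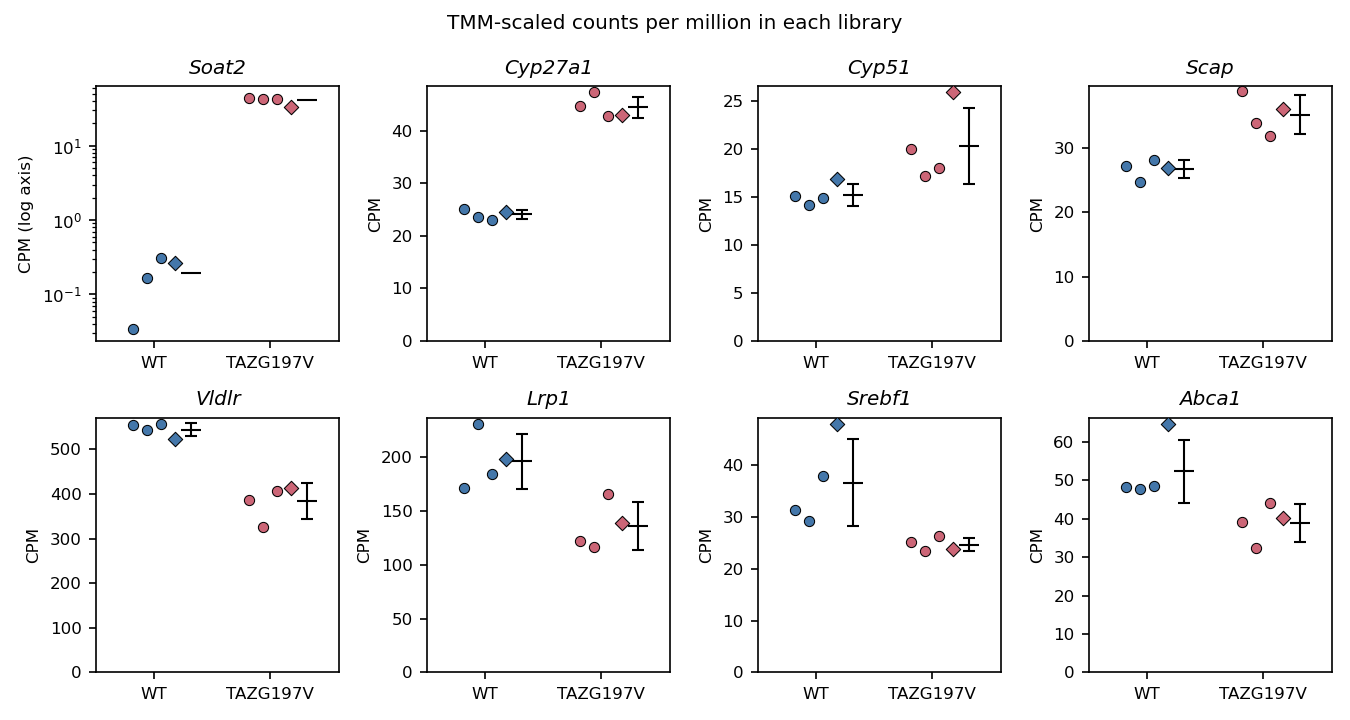
TMM-scaled CPM (y axis, log axis for Soat2) of 8 of the genes in each library by genotype (x axis). Points are libraries, diamonds the number 4 libraries, horizontal strokes the mean and bars the SD over 4 libraries (not drawn for Soat2), and in each of the 8 panels the genotypes do not overlap.

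Of the 5 sterol-sensing genes, 2 were called higher and 1 lower, where 18.5% and 15.1% of all genes tested were. Srebf1 (ENSMUSG00000020538, chromosome 11, 60199089 to 60222581, minus strand), which encodes the SREBP isoforms tied to fatty acid synthesis, measured 31.4, 29.2, 38.0 and 48.0 CPM in WT and 25.2, 23.4, 26.3 and 23.7 CPM in TAZG197V. All mutant values were lower and close together, while WT values were spread. Srebf1 fell with a log2 fold change of -0.61 ± 0.088 (edgeR adjusted p = 0.00105), it was called in all 18 alternative fits, and its difference was -0.31 in lane 7 and -0.76 in lane 8. Without both number 4 libraries and without surrogate variables it was -0.40 (adjusted p = 0.0196 by edgeR), so the call did not rest on WT 4, the highest library. Srebf2, which encodes the isoform tied to cholesterol synthesis, had 29.6 to 38.8 CPM in WT and 27.6 to 40.3 CPM in TAZG197V, with a log2 fold change of -0.09 ± 0.063 (adjusted p = 0.296).

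Scap (ENSMUSG00000032485, chromosome 9, 110333288 to 110384950, plus strand), the SREBP escort, measured 27.2, 24.7, 28.2 and 26.8 CPM in WT and 38.9, 33.8, 31.8 and 36.1 CPM in TAZG197V, without overlap. Its log2 fold change was 0.38 ± 0.079 (edgeR adjusted p = 0.00632), and 9.96% of its windows occur in another gene. Insig1, the sterol-induced retention factor, measured 17.0, 16.2, 19.1 and 15.6 CPM in WT and 24.1, 20.2, 19.7 and 30.4 CPM in TAZG197V. Its lowest mutant value was just above the highest WT value. Insig1 rose with a log2 fold change of 0.46 ± 0.13 (edgeR adjusted p = 0.0219), the call was lost without WT 1 or without TAZG197V 1 (0.0644 and 0.0665), and the estimate was 0.31 without TAZG197V 4 and 0.16 without both number 4 libraries (adjusted p = 0.483). Insig2, its partner, gave 0.01 ± 0.051 (adjusted p = 0.936) at 58.3 ± 3.73 CPM in WT and 57.9 ± 2.35 in TAZG197V.

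Both lipoprotein receptors were called lower. Vldlr (ENSMUSG00000024924, chromosome 19, 27216484 to 27254231, plus strand), the VLDL receptor, had the highest level per kilobase of exon among the 34 genes, at 54.0 ± 1.52 CPM for WT and 38.1 ± 4.00 for TAZG197V hearts (SD, n = 4). Its CPM values were 553.4, 542.1, 557.5 and 523.2 in WT and 387.3, 325.4, 407.0 and 413.9 in TAZG197V. The genotypes were far apart, with a log2 fold change of -0.50 ± 0.086 (edgeR adjusted p = 0.00254) and differences of -0.62 in lane 7 and -0.40 in lane 8. Endothelial markers moved the same way (2 of 5 called lower, sums of 652.3 to 924.2 CPM in WT and 524.6 to 680.7 in TAZG197V), as did 2 of 6 ventricular markers, and their part in the Vldlr result was not tested. The Vldlr promoter with the C/EBP-ATF composite was shown with the other promoters, as a description only.

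Lrp1 (ENSMUSG00000040249, chromosome 10, 127538161 to 127621148, minus strand), a large endocytic receptor of remnant lipoproteins and many other ligands, measured 171.5, 231.0, 184.2 and 198.7 CPM in WT and 121.9, 116.9, 166.2 and 139.0 CPM in TAZG197V. TAZG197V 3 lay just below the lowest WT library. The log2 fold change was -0.50 ± 0.13 (edgeR adjusted p = 0.0156), and the call was lost without TAZG197V 1 or without TAZG197V 2 (0.0622 and 0.0671). Fibroblast markers moved the same way, with 3 of 5 called lower, summed levels of 750.5 to 1252 CPM in WT and 502.9 to 696.9 CPM in TAZG197V, and the highest sum in WT 2, where Lrp1 was also highest. Their part in the Lrp1 result was not tested, and in bulk tissue fewer cells of a type and less RNA per cell cannot be told apart.

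Among the efflux genes Abca1 was called lower and Abcg1 was not called. Abca1 (ENSMUSG00000015243, chromosome 4, 53030787 to 53159895, minus strand), which loads cholesterol onto apolipoproteins, measured 48.3, 47.8, 48.5 and 64.7 CPM in WT and 39.2, 32.3, 44.1 and 40.2 CPM in TAZG197V, with WT 4 well above the other WT libraries. The log2 fold change was -0.45 ± 0.11 (edgeR adjusted p = 0.0119), with differences of -0.43 in lane 7 and -0.41 in lane 8. Without both number 4 libraries the Abca1 estimate was -0.33 and the call was lost (edgeR adjusted p = 0.193), and without surrogate variables as well it was -0.33 and called (0.0455). Abcg1, which exports sterol to larger lipoprotein particles, had 4.62 to 8.57 CPM in WT and 4.65 to 7.26 CPM in TAZG197V, and a log2 fold change of -0.15 ± 0.12 (adjusted p = 0.343). Macrophages express both transporters, and 0 of 6 macrophage markers were called, with sums of 188.3 to 218.9 CPM in WT and 174.0 to 279.4 CPM in TAZG197V. Their part in the Abca1 and Abcg1 results was not tested. The LXR genes Nr1h2 and Nr1h3 gave log2 fold changes of 0.04 ± 0.064 and 0.10 ± 0.083 (adjusted p 0.652 and 0.349) with overlapping genotypes.

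In mitochondrial sterol use, Cyp27a1 was called higher and Star was not called. Cyp27a1 (ENSMUSG00000026170, chromosome 1, 74713574 to 74737892, plus strand), the inner-membrane sterol 27-hydroxylase, measured 25.1, 23.7, 23.0 and 24.5 CPM in WT and 44.7, 47.3, 42.9 and 43.1 CPM in TAZG197V. The 2 groups were tight and widely separated, at 24.1 ± 0.897 and 44.5 ± 2.05 CPM (SD, n = 4), 1.85-fold apart. Its rise had a log2 fold change of 0.88 ± 0.063 (edgeR adjusted p = 3.78e-05), it was called in all 18 alternative fits, and differences were 0.90 in lane 7 and 0.84 in lane 8. Star, which delivers cholesterol to the inner mitochondrial membrane in steroid-making cells, had 3.50 to 4.60 CPM in WT and 3.05 to 4.44 CPM in TAZG197V, with a log2 fold change of -0.20 ± 0.12 (adjusted p = 0.222). The adrenal cortex markers Cyp11b1 and Cyp21a1 had 0 counts in all 8 libraries, and the 4 adrenal markers summed to at most 0.182 CPM.

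The calls were also counted without the number 4 libraries. With both left out and 2 surrogate variables refitted, Soat2, Cyp27a1, Vldlr, Srebf1 and Hsd17b7 were called (adjusted p 5.02e-06, 0.00162, 0.0202, 0.0091 and 0.0227) and 10 calls were lost, where 17.4% of all genes tested were called, 9.41% higher and 7.97% lower. The estimates of the 10 were -0.52 for Pmvk, 0.51 for Mvd, 0.34 for Ggps1, 0.38 for Nsdhl and -0.45 for Lrp1, within 1.5 times of those over all libraries, as were Cyp51 at 0.30, Scap at 0.30 and Abca1 at -0.33. Msmo1 at 0.25 and Insig1 at 0.16 moved by more. That fit has few residual degrees of freedom. With both left out and no surrogate variables, 13 of the 15 were called, without Insig1 (log2 fold change 0.29, edgeR adjusted p = 0.0588) and Nsdhl (0.31, 0.0941), where 30.6% of all genes tested were called, 17% higher and 13.5% lower.

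Related genes were next compared as ratios within a library, taken as log2 of CPM plus 0.5 per kilobase of exon and tested by an exact two-sided permutation of the 8 libraries. With 70 regroupings the smallest possible p is 0.0286, and none of the 5 pairs passed after Benjamini-Hochberg adjustment. The Soat2 to Soat1 ratio moved from -1.21 ± 0.44 in WT to 5.07 ± 0.43 in TAZG197V (SD, n = 4, exact p = 0.0286, adjusted 0.0714), without overlap. The Insig1 to Insig2 ratio moved from -1.58 ± 0.11 to -1.13 ± 0.32 (exact p = 0.0286, adjusted 0.0714), also without overlap. The Srebf1 to Srebf2 ratio differed by -0.44 and the Abca1 to Abcg1 ratio by -0.32, both with overlap (exact p = 0.114 and 0.143, adjusted 0.179 each), and the Nr1h3 to Nr1h2 ratio by 0.08 (exact p = 0.457). Without both number 4 libraries the differences were 6.43 for Soat2 to Soat1, 0.31 for Insig1 to Insig2 and -0.24 for Srebf1 to Srebf2. They were -0.27 for Abca1 to Abcg1 (-0.20 without TAZG197V 4 alone) and 0.10 for Nr1h3 to Nr1h2.

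**Figure D4:**
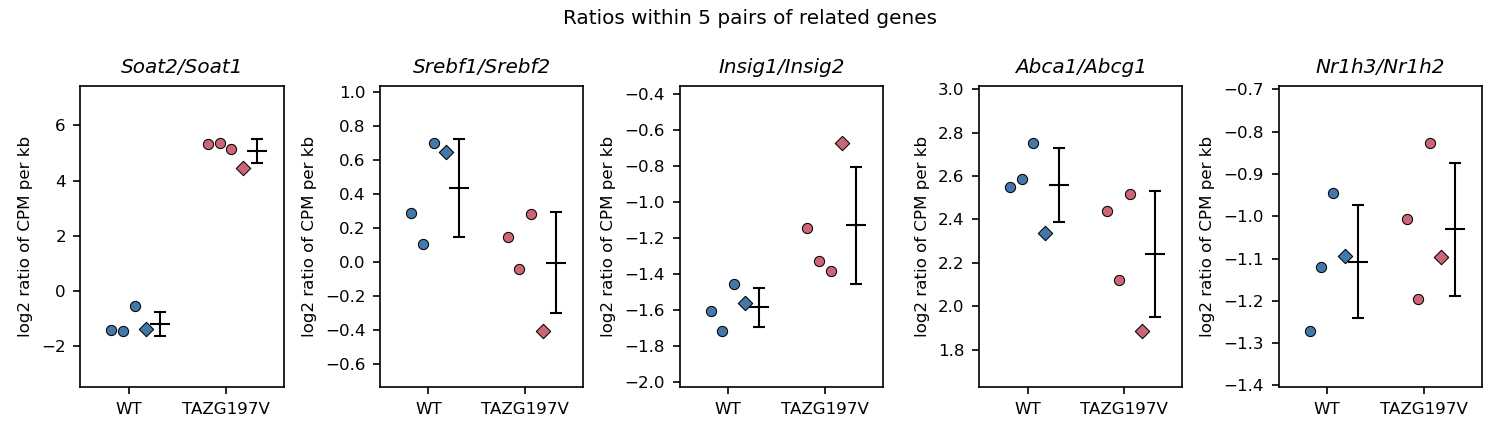
Log2 ratio of CPM per kilobase of exon (y axis, a separate range in each panel) within 5 pairs of related genes in each library by genotype (x axis). Points are libraries, diamonds the number 4 libraries, and crosses with bars the mean and SD over 4 libraries; the genotypes do not overlap for Soat2 to Soat1 and Insig1 to Insig2 and overlap for the other pairs.

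Levels per kilobase of exon spanned a wide range within WT hearts. After Vldlr came Insig2 at 16.8 ± 1.07 CPM, Nr1h2 at 13.4 ± 0.591, and Lrp1 and Cyp27a1 at 11.1 ± 1.45 and 11.1 ± 0.413 (SD, n = 4). Lrp1 and Cyp27a1 did not differ beyond their spread. In TAZG197V hearts Cyp27a1 stood at 20.5 ± 0.941 and Soat2 at 18.5 ± 2.2 behind Vldlr, and these 2 overlapped in their spread. The lowest synthesis enzymes in WT were Idi1 at 0.13 ± 0.064 and Fdps at 0.15 ± 0.043, which also did not differ beyond their spread.

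Genes around the pathway were counted in 5 further lists of 72 genes, of which 69 were tested, 14 called higher and 8 lower. This is 31.9% of those tested, about the 33.5% of all genes tested (18.5% higher and 15.1% lower), so the count is no result about these lists. Among 20 genes of SREBP processing and sterol transport, 8 were called higher and 1 lower (45% called, 33.5% over all genes). Stard5, a cytosolic sterol carrier, went from 7.18 ± 1.71 to 25.5 ± 3.40 CPM (1.78 ± 0.14 on the log2 scale, edgeR adjusted p = 6.51e-05, 23.9% of its exons overlapping another gene). Gramd1c, of the family that moves sterol from the plasma membrane to the endoplasmic reticulum, went from 1.20 ± 0.387 to 4.01 ± 1.13 CPM (1.77 ± 0.29, adjusted p = 0.00191). Both were called in all 18 alternative fits.

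Among 13 lipogenic targets of SREBP1 and LXR, 2 were called higher and 3 lower (38.5% called, 33.5% over all genes). Acaca, the cytosolic acetyl-CoA carboxylase, was called higher (0.66 ± 0.095, edgeR adjusted p = 0.00112). Scd1, the stearoyl-CoA desaturase, was called lower (-0.79 ± 0.20, adjusted p = 0.0142), with 18.4, 48.9, 15.8 and 35.2 CPM in WT and 10.5, 9.55, 14.4 and 27.4 CPM in TAZG197V. Scd1 overlapped between genotypes and was highest in WT 2, the library with the most adipocyte transcripts, whose part was not tested. The Scd1 call was made in 12 of the 18 alternative fits and was lost, with all 8 libraries, without surrogate variables (edgeR adjusted p = 0.137), with lane in their place (0.134) and with the replicate number as a block (0.105), and also without TAZG197V 1 (0.0737) or TAZG197V 2 (0.083). Without both number 4 libraries Scd1 was at -0.46 and not called (edgeR adjusted p = 0.177), and without these libraries and surrogate variables it was at -1.28 and called (0.0395). Thrsp, a regulator of lipogenesis, was called lower (-0.57 ± 0.18, adjusted p = 0.0342) without overlap, in 13 of the 18 alternative fits. The Thrsp call was lost without WT 1, WT 3, TAZG197V 1 or TAZG197V 2 (edgeR adjusted p 0.061 to 0.0987), and its estimate was -1.03 without both number 4 libraries (0.00466).

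Among 14 genes of isoprenoid use, 2 were called higher and 1 lower (21.4% called, 33.5% over all genes). Rabggtb, a subunit of the enzyme that prenylates Rab proteins, gave 0.52 ± 0.060 (edgeR adjusted p = 3.92e-04), Dhdds, of dolichol synthesis, 0.28 ± 0.066 (0.0106) and Pggt1b, a subunit of another prenyltransferase, -0.23 ± 0.058 (0.0138). The Dhdds and Pggt1b calls were lost without both number 4 libraries (0.15 and -0.17, edgeR adjusted p 0.318 and 0.263), and without these libraries and surrogate variables both were called (0.22 and -0.22, 0.028 and 0.0312). Of 13 other lipoprotein receptors and partners tested, 2 were called lower (15.4%, against 15.1% of all genes), Sorl1 (-0.83 ± 0.13, adjusted p = 0.0016) and Lrp4 (-0.53 ± 0.15, 0.0234), both with overlap between genotypes. The Sorl1 call was lost without surrogate variables (0.065) and with lane in their place (0.0701), and the Lrp4 call without WT 1, WT 4, TAZG197V 1 or TAZG197V 2 (edgeR adjusted p 0.0605 to 0.0867). Both calls were lost without both number 4 libraries (-0.47 and -0.17, edgeR adjusted p 0.0916 and 0.573), and without these libraries and surrogate variables Sorl1 was called (-0.92, 0.0105) and Lrp4 was not (-0.39, 0.0648).

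Of 9 oxysterol and steroid enzymes and partners tested, 2 were called higher and 1 lower (33.3% called, 33.5% over all genes). Fdxr, the ferredoxin reductase that passes electrons to mitochondrial cytochromes P450 such as CYP27A1, was called higher (0.64 ± 0.092, edgeR adjusted p = 0.0011), and so was Tspo, an outer mitochondrial membrane protein (0.60 ± 0.12, adjusted p = 0.00631). Hsd11b1, which reactivates glucocorticoids, was called lower (-0.78 ± 0.12, adjusted p = 0.0016). Olr1, Hsd3b7 and Abcg4 had too few reads to be tested.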

How the data were processed

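RNA from 4 WT and 4 TAZG197V hearts was sequenced by the authors as 50-base single-end reads (TruSeq libraries from 500 ng of total RNA). As the labels and the methods state, they demultiplexed with bcl2fastq 2.20.0, checked reads with FastQC 0.11.9, aligned them to mm10 with STAR 2.7.3a allowing 2 mismatches and counted exonic reads with featureCounts of Subread 2.0.0. Which annotation was counted, whether strand was used and how multi-mapping reads were treated was not given in the sources used here, so genes that share sequence or overlap another gene are reported as uncertain. The deposited values are raw counts per Ensembl gene. The 92 ERCC spike-in identifiers summed to 0 counts and were left out. Symbols and positions came from GENCODE M21 on GRCm38, which named 55144 gene IDs, and promoters from RefSeq on GRCm38.p6.

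Counts were filtered with filterByExpr, scaled by TMM and tested in R 4.3.3 with the two-sided quasi-likelihood F-test of edgeR 4.0.16, with 2 surrogate variables from svaseq (sva 3.50.0, seed 1, genotype protected) as covariates and Benjamini-Hochberg adjustment over the 15084 genes tested. A gene was called at an adjusted p under 0.05, a fitted fold change beyond 1.15 and a mean size-factor-scaled count of at least 50. The standard error is the size of the log2 fold change divided by the square root of F. Differences within a lane are differences of mean log2(CPM + 0.5) between 2 libraries of each genotype, given with no test. Ratios within pairs used CPM plus 0.5 and an exact permutation test. The procedure was run on simulated counts with known changes, drawn without the tissue differences seen between these libraries. Its outcome is not given here and is no support for the calls. Alternatives were DESeq2 1.42.0, other covariates, size factors and filters, a fold change of 1.5 and omission of libraries. The 34 genes, the other lists, the tests and the alternatives were chosen with earlier results of these data known. Named are Taz, the 34 genes, up to 3 called genes of each other list with the largest change, and markers beside a result. A gene of the other lists that this rule would name is not reported here. The labels do not say how each sample was taken, so p-values measure the spread between these samples. Reads carried no molecular identifiers.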

Additional observations from a re-analysis of the deposited data

Results flagged for a closer look

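Among the 34 genes, each genotype's 4 libraries were checked for 1 that lies far from the rest, by dividing its distance from the closest other library by the whole range and setting this against Dixon's critical value for 4 samples. Of 68 sets, 6 exceeded it where chance gives about 1 in 20, or 3.4 sets. In TAZG197V 4 the high value stood out for Sqle (0.987), Acat2 (0.957), Msmo1 (0.911), Hmgcs1 (0.888) and Abcg1 (0.865), and in WT 4 for Abca1 (0.954). All 6 were high values of the number 4 libraries. TAZG197V 4 was 7.59 times the mean of the other 3 mutant libraries for Sqle, 2.51 times for Acat2, 2.36 times for Hmgcs1, 1.59 times for Msmo1 and 1.51 times for Abcg1, and WT 4 was 1.34 times the mean of the other 3 WT libraries for Abca1. Brain markers were highest in the same libraries and red cell markers in WT 4, and their part in these values was not tested.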

How the results depend on the processing

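The 34 genes gave 15 calls, 10 higher and 5 lower, and 12 with the replicate number as a block in place of surrogate variables (8 higher, 4 lower, Hsd17b7, Insig1 and Pmvk lost), where 28.3% of all genes were called. Deviations from the group means correlated at 0.277, 0.0436, 0.28 and 0.416 for libraries numbered 1 to 4. Libraries of different number gave -0.464 to 0.317, so the number 4 value lay above that range and the others within it. The main fit did not treat the numbers as pairing, and the block fit gives the calls if they are. Without surrogate variables 10 of the 34 genes were called (6 higher, 4 lower), and with lane in their place 11 (6 higher, 5 lower). Over all 15084 genes tested 27.8% and 28.1% were called in these fits, 2410 and 2436 of the genes higher. At a fold change of 1.5 there were 3 calls (2 higher, 1 lower), with 9 in the other lists and 1843 over all genes (998 higher, 845 lower). Without both number 4 libraries there were 5 calls (3 higher, 2 lower), with 14 in the other lists and 2647 over all genes (1433 higher, 1214 lower). Leaving out 1 library gave 10 to 17 calls, 7 to 12 higher and 3 to 7 lower, 17 to 27 in the other lists (22 with all libraries) and 3675 to 5241 over all genes (5060 with all libraries). The 3 calls lower came without TAZG197V 1 and without TAZG197V 2. Apart from the lower number of genes that a stricter fold allows, the cause was not tested.

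Of 578 refitted values of the 34 genes, none reversed among called ones, 48 lost and 10 gained the threshold. Another 42 changes of sign were of genes called in neither fit. Taz stayed between -0.40 and -0.34. For the Soat2 to Soat1 ratio a pseudocount of 0.1 gave 7.64 in place of 6.28. With 3 libraries against 3 the smallest exact p is 0.10 and with the block 0.125, so those fits cannot call a ratio. Depth limits Soat2 in WT, Idi1 and Fdps.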
